A study of Mus musculus with 30 samples.

Results

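Macrophage and myeloid genes were followed through 30 mouse lung tumours profiled by RNA sequencing. The genes were taken by symbol from a list of 37 names covering macrophage receptors, lysosomal enzymes, alveolar macrophage products and monocyte markers. Of these, 36 had a row under that name among the 23284 gene rows of the deposited table. The remaining name, Spi1, encodes the lineage factor PU.1, and its older symbol Sfpi1 has a row, whose values are given beside the members without being counted among them. Every one of the 36 members passed the filter on low values, which kept 14539 genes.

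Macrophages arise from blood monocytes and from embryonic precursors that settle in tissues early in life. In the lung, alveolar macrophages live in the air spaces, depend on the growth factor GM-CSF and the lipid regulator PPARγ, and clear surfactant. Interstitial macrophages and monocyte-derived cells lie in the tissue and rely on CSF1, the ligand of the receptor encoded by Csf1r.

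The tumours were K-RAS-induced, that is, driven by the growth-signalling GTPase K-RAS, and came from mice that were untreated or given an antioxidant, either NAC or vitamin E. The labels describe 5 animals for each treatment and 2 tumours from each animal, and they do not state the strain, the age, the dose, the duration or the promoter that drives K-RAS. The 30 columns of the table carry a letter (A, B or C), an animal digit and a tumour digit, so that A10 and A11 are read as the tumours of animal A1. The sources used here give no key from the letters to the treatments, so the letters are compared as letters and no treatment is assigned to any of them.

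Each column held between 18322631 and 24408946 gene reads, recovered from the size-factor steps in the values. The 12 index sequences recur in column order, each in 2 or 3 columns, and no sequencing run or extraction day is given, so a batch that follows the letters cannot be told apart from them. Markers of lung tumour epithelium were present in every column, with Sftpc, the surfactant protein C gene, between 19.63 and 20.89 on the log2(value + 1) scale. In bulk tumour RNA a lower level can mean fewer cells of a type or less RNA in each, and these cannot be told apart. Column A11 stood apart through fat cell genes, which were examined after its values had been seen. Its summed Adipoq, Plin1, Cfd, Lep and Retn was 10400 normalized reads, against 1150 in the next column. It was also the lowest of the 10 A columns in 23 of the 36 members. Column B50 was the lowest B column in 19 members and lay inside the range of the A columns in 31, whereas its sister tumour B51 did so in 8. These counts for A11, B50 and B51 were not set against all genes kept, so they describe the members only. Over all genes kept, just 0.234% had A and B columns that did not overlap. Counts of members called in the letter contrasts are therefore also given without column A11 and without column B50.

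Reference promoters of the members show a feature of this gene set that its expression values do not. PU.1 binds sequences with the core GAGGAA, which reads TTCCTC on the opposite strand. In the 100 bases before the annotated start, 10 of the 27 members with a RefSeq entry (GRCm38.p6) hold these letters on either strand, which is 37.0%, against 9.76% of 27025 genes. Of these 27 windows, 21 ran into the gene's own transcript, so most were not purely upstream sequence. The match is a description of letters in a window and says nothing of binding in these tumours. Windows of 3 members that were higher in letter C and of 1 that was lower are printed 5′ to 3′ on the gene's strand, with the matching letters in capitals.
Laptm5, chr4:130913216-130913315, + strand: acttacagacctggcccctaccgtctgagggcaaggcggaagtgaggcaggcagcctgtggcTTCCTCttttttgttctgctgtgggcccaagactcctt
Fcgr1, chr3:96293970-96294069, - strand: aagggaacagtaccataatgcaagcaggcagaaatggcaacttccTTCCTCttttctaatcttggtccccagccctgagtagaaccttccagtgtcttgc
Trem2, chr17:48346301-48346400, + strand: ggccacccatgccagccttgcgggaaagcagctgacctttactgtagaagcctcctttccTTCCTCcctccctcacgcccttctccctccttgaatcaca
C1qb, chr4:136886201-136886300, - strand: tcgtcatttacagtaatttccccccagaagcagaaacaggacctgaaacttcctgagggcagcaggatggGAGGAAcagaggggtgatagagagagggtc
The matching letters begin 38 bases before the start of Laptm5, 55 before Fcgr1, 40 before Trem2 and 30 before C1qb. They were found in 8 of the 18 members with a window that were higher in C than in A, and in 1 of the 5 that were lower.

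Most of the members were higher in the C tumours than in the A tumours, and a smaller set with the complement C1q genes, Apoe and the monocyte chemokine receptors was lower. Differences were tested with limma on 5 animal means for each letter, in log2(value + 1), with Benjamini-Hochberg adjustment over all genes kept. Of the 36 members, 23 were higher in C and 7 were lower at an adjusted p under 0.05, and 6 did not pass. Over all genes the same test called 44.8%, with 21.9% higher and 22.9% lower. The median difference was 0.7 over the members and 0.0 over all genes kept. The count for C against A was 30 members without column A11 and also 30 without column B50. Columns of A and C did not overlap at all in 12 members, against 9.29% of all genes kept. The heat map shows the larger set turning from blue in A to red in C and the smaller set turning the other way.

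**Figure D1:**
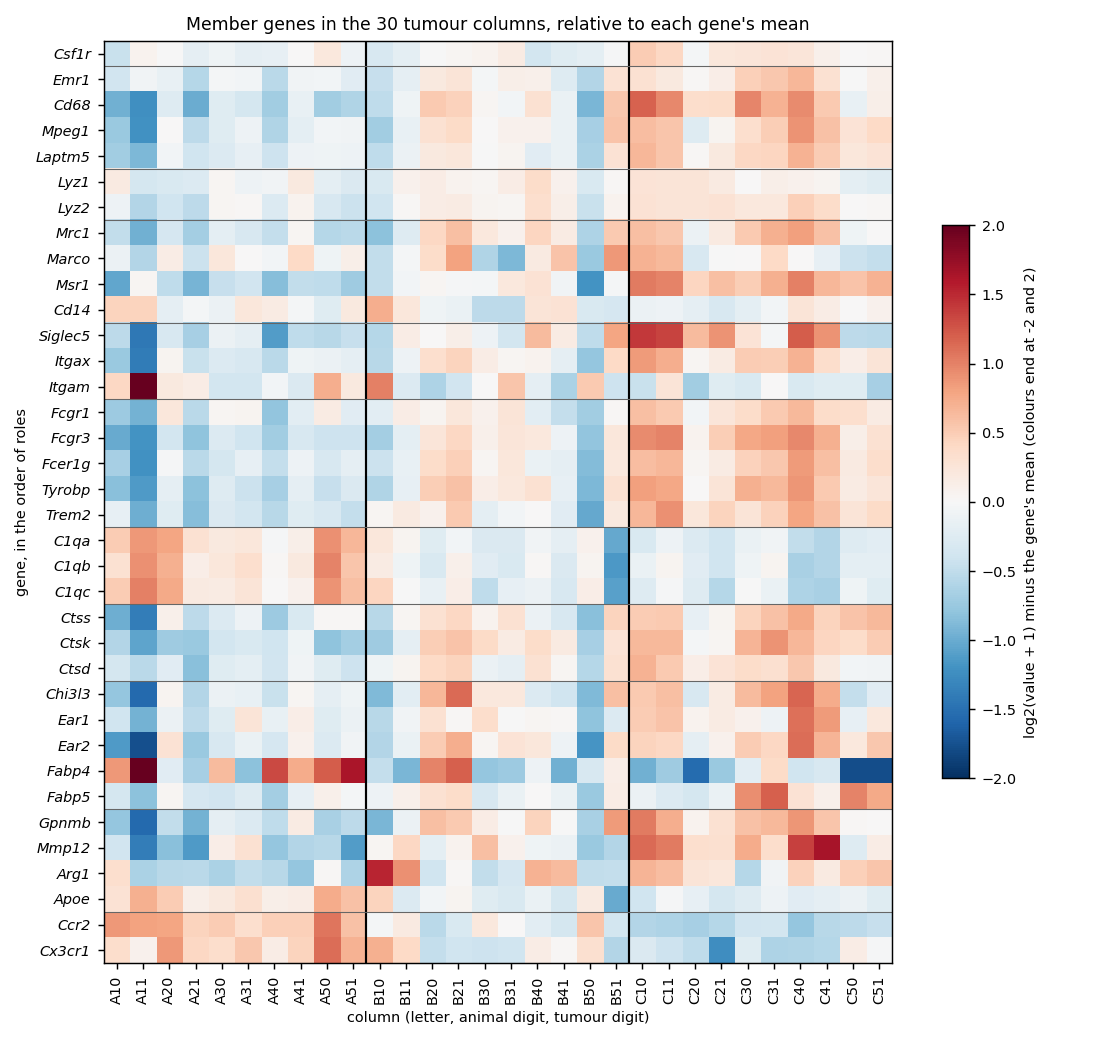
Log2(value + 1) of the 36 members in the 30 columns, each gene shown relative to its own mean, with black lines between the letters and grey lines between roles. Columns of letter C are mostly red in the rows of the 23 genes that were higher in C and blue in the C1q, Apoe and Ccr2 rows, and A11 has the strongest blue of the A columns in many rows.

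Compared per kilobase of exon, the members' median levels over all columns ran from 23 normalized reads for Itgam to 240000 for Lyz2. Lyz2, which encodes the macrophage lysozyme and is also made by alveolar type 2 cells, was followed by Lyz1 at 29200, Chi3l3 at 18800, Ctsd at 12200 and Ctss at 11000. Csf1r stood at 231, and the monocyte receptors Ccr2 and Cx3cr1 at 43.3 and 35.7.

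Csf1r encodes the receptor through which macrophages survive and divide. Its lowest, median and highest values were 9.7, 10.05 and 10.35 in A, 9.77, 10.04 and 10.3 in B, and 10.11, 10.38 and 10.65 in C. The C median lay above the highest A and B columns, while the lower C columns overlapped both ranges. The difference between C and A was 0.29 ± 0.09 (SE; adjusted p = 0.0163), and that between C and B was 0.31 ± 0.09 (adjusted p = 0.0289). With only the first tumour of each animal the C against A difference was 0.30 with an adjusted p of 0.0861. The PU.1 row Sfpi1 differed by 0.78 ± 0.14 between C and A (adjusted p = 0.000793), and its A and C columns did not overlap.

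All 4 general macrophage genes of the membrane and lysosome rose in C. Cd68, a lysosomal glycoprotein used as a pan-macrophage marker, had lowest, median and highest values of 8.61, 9.19 and 9.69 in A, 8.93, 9.83 and 10.38 in B, and 9.69, 10.45 and 11.02 in C. The letters formed a rising series of medians, and the lowest C column met the highest A column. The C against A difference was 1.21 ± 0.20 (adjusted p = 0.000438). Laptm5, a lysosomal protein of blood cells, rose by 0.72 ± 0.14 (adjusted p = 0.000949) with no overlap between the A range of 12.05 to 12.89 and the C range of 12.98 to 13.64. Mpeg1, the pore-forming perforin-2 of macrophages, rose by 0.77 ± 0.18, and Emr1, which encodes an adhesion receptor used as a marker of mouse macrophages, by 0.49 ± 0.11. The lysozymes moved less. Lyz2 rose by 0.49 ± 0.15 (adjusted p = 0.0161), which had an adjusted p of 0.103 when no filter on low values was set and of 0.092 with the first tumours alone, while Lyz1 differed by 0.20 ± 0.10 (adjusted p = 0.128) and by 0.27 without animal C5 (adjusted p = 0.031). These paralogs are near-identical in places, so reads could have been split between them.

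Among the scavenger and pattern receptors, Msr1 and Mrc1 rose and Marco and Cd14 did not pass. Msr1, the scavenger receptor A that takes up modified lipoproteins, had lowest, median and highest values of 7.25, 7.78 and 8.33 in A, 7.09, 8.24 and 8.58 in B, and 8.72, 8.97 and 9.33 in C. Every C column lay above every A and every B column. The C against A difference was 1.31 ± 0.13 (adjusted p = 3.36e-05), a 2.47-fold level on this scale, and C exceeded B by 0.86 ± 0.13 (adjusted p = 0.0012). Msr1 was the only member whose B and C columns did not overlap, against 2.59% of all genes. Mrc1, the mannose receptor, rose by 0.83 ± 0.19 (adjusted p = 0.00275). Marco, a scavenger receptor typical of alveolar macrophages, had medians of 10.57 in A, 10.66 in B and 10.58 in C. Its difference between C and A was 0.08 ± 0.23 (adjusted p = 0.809), and its sign turned to -0.00 without animal A1 and to -0.08 without animal C1. Its B columns spread the most, from 9.69 in B31 to 11.46 in B51. Cd14, the lipopolysaccharide co-receptor, differed by -0.13 ± 0.16 (adjusted p = 0.525).

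**Figure D2:**
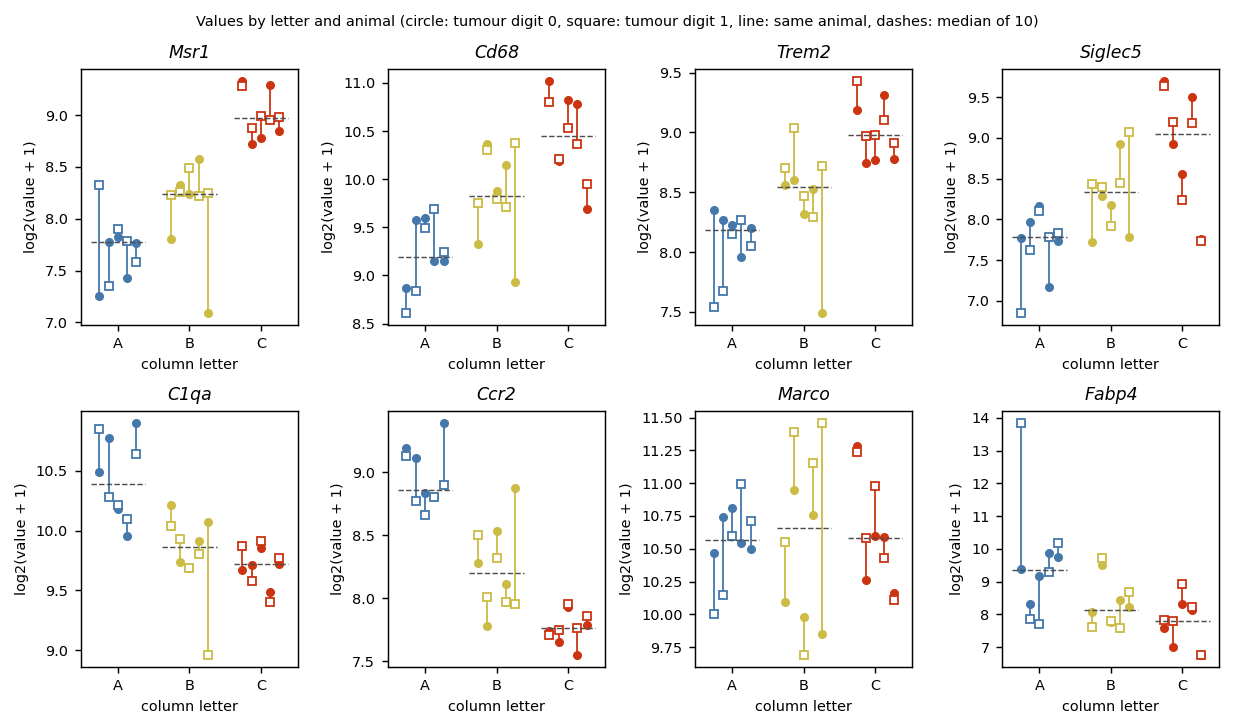
Log2(value + 1) of 8 members by letter, with each vertical line joining the tumours of 1 animal and dashes at the median of the 10 columns. Every C column of Msr1 lies above the A and B columns, every C column of Ccr2 lies below the A columns, the letters overlap for Marco, and the circle of animal B5 lies far from its square in most panels, while A11 is alone at the top of Fabp4.

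The Fc receptors, their adaptors and Trem2 rose together: 5 of 5 passed the test in C against A. Trem2, a lipid-sensing receptor that signals through Tyrobp, had lowest, median and highest values of 7.54, 8.18 and 8.35 in A, 7.49, 8.54 and 9.04 in B, and 8.74, 8.98 and 9.43 in C. Every C column lay above every A column, while B reached into both ranges. The difference was 0.95 ± 0.12 (adjusted p = 0.000126) against A and 0.55 ± 0.12 (adjusted p = 0.00927) against B. Fcgr3, a low-affinity receptor for IgG, rose by 1.21 ± 0.18, and Tyrobp, the adaptor also known as DAP12, by 1.02 ± 0.18. Fcer1g, the shared Fc receptor gamma chain, rose by 0.85 ± 0.17 and Fcgr1, the high-affinity IgG receptor, by 0.67 ± 0.16. Columns of A and C did not overlap for Fcgr3, Fcer1g, Tyrobp and Trem2.

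The 3 cathepsins, proteases of the lysosome, also rose in C. Ctsk, a collagen-degrading cathepsin, went from a range of 10.65 to 11.62 in A to 11.67 to 12.6 in C, with a difference of 1.06 ± 0.18 (adjusted p = 0.000589). Ctss, which trims the chaperone of MHC class II, rose by 0.85 ± 0.20 and Ctsd by 0.64 ± 0.13. Of the 4 lipid and matrix genes, Mmp12 and Gpnmb rose, Apoe fell and Arg1 did not pass. Mmp12, the macrophage elastase, had lowest, median and highest values of 8.0, 8.71 and 9.68 in A and 9.12, 9.93 and 11.03 in C. The ranges overlapped, and C41 and C40 were high. The difference was 1.32 ± 0.29 (adjusted p = 0.0022). Gpnmb, a glycoprotein of lipid-laden macrophages, rose by 1.06 ± 0.22. Arg1, which breaks down arginine, differed by 0.72 ± 0.29 (adjusted p = 0.0537) and passed without animal B1, B3, B5 or C3, with differences of 0.72 to 0.87. It also passed with the animal as a random block (adjusted p = 0.0153), with the second tumours alone (0.00731), with TMM scaling (0.0499) and with DESeq2 (0.0487).

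Complement C1q, Apoe, Ccr2 and Cx3cr1 moved in the opposite direction. C1qa, C1qb and C1qc encode the chains of C1q, which starts the classical complement pathway and is made mainly by tissue macrophages. C1qa had lowest, median and highest values of 9.95, 10.39 and 10.9 in A, 8.96, 9.86 and 10.21 in B, and 9.4, 9.72 and 9.91 in C. Every C column lay below every A column, and B51 was the lowest of all. The C against A differences were -0.74 ± 0.14 for C1qa (adjusted p = 0.00102), -0.67 ± 0.14 for C1qb (adjusted p = 0.00168) and -0.73 ± 0.16 for C1qc (adjusted p = 0.00215). Apoe, the lipid carrier made by macrophages and other cells, fell by 0.58 on the log2 scale (SE 0.10; adjusted p = 0.000579).

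Ccr2, the receptor that draws inflammatory monocytes into tissue, had lowest, median and highest values of 8.66, 8.86 and 9.39 in A, 7.78, 8.2 and 8.87 in B, and 7.55, 7.76 and 7.95 in C. All C columns lay below all A columns, and the highest B column was B50. The difference between C and A was -1.19 ± 0.12 (adjusted p = 2.36e-05) and that between C and B was -0.46 ± 0.12 (adjusted p = 0.0142). Cx3cr1, the fractalkine receptor of patrolling monocytes and some tissue macrophages, fell by 0.93 (SE 0.20; adjusted p = 0.00215).

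Markers of other cell types moved with the letters too, and their part in these differences was not tested. All of the B cell markers (5 of 5) and club cell markers (3 of 3) were lower in C than in A, as were 5 of 8 dendritic cell, 4 of 6 T cell, 4 of 5 endothelial and 3 of 6 neutrophil markers. In the T cell list, Cd2 was higher by 0.67 ± 0.12 and Cd8a did not pass (-0.39 ± 0.33, limma adjusted p = 0.365). Over all genes kept, 21.9% were higher in C than in A and 22.9% lower. Dendritic cells can also express Ccr2 and Cx3cr1, and their summed markers were 851 to 1900 normalized reads in A, 544 to 1030 in B and 463 to 743 in C. Summed B cell markers were 578 to 2610 in A and 408 to 688 in C, and summed T cell markers 922 to 2080 in A and 1020 to 1570 in C. The T cell medians were 1140 in A and 1320 in C. The club cell sum was 1100000 to 3440000 in A and 579000 to 1390000 in C. The endothelial sum was 11800 to 25500 in A and 9510 to 17100 in C, and the neutrophil sum 1660 to 45400 in A and 1130 to 7090 in C. The neutrophil medians were 3340 in A and 3700 in C. In A51, the column with the highest sum, Ltf alone stood at 44950. Ltf differed by -0.64 ± 0.64 between C and A (limma adjusted p = 0.431). Tumour epithelium and alveolar type 2 markers were higher in 3 of 8 cases and lower in none (limma), with Sftpb up by 0.48 ± 0.17, Sftpa1 by 0.44 ± 0.15 and Epcam by 0.25 ± 0.06, and their summed level ran from 1220000 to 2310000 in A and from 2280000 to 2760000 in C. Of the 4 genes shared by all leukocytes 1 rose, Cd53 by 0.47 ± 0.15, while Ptprc, which encodes CD45, differed by 0.18 ± 0.11 (adjusted p = 0.215). None of the listed markers was at 0 in every column for these cell types.

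**Figure D3:**
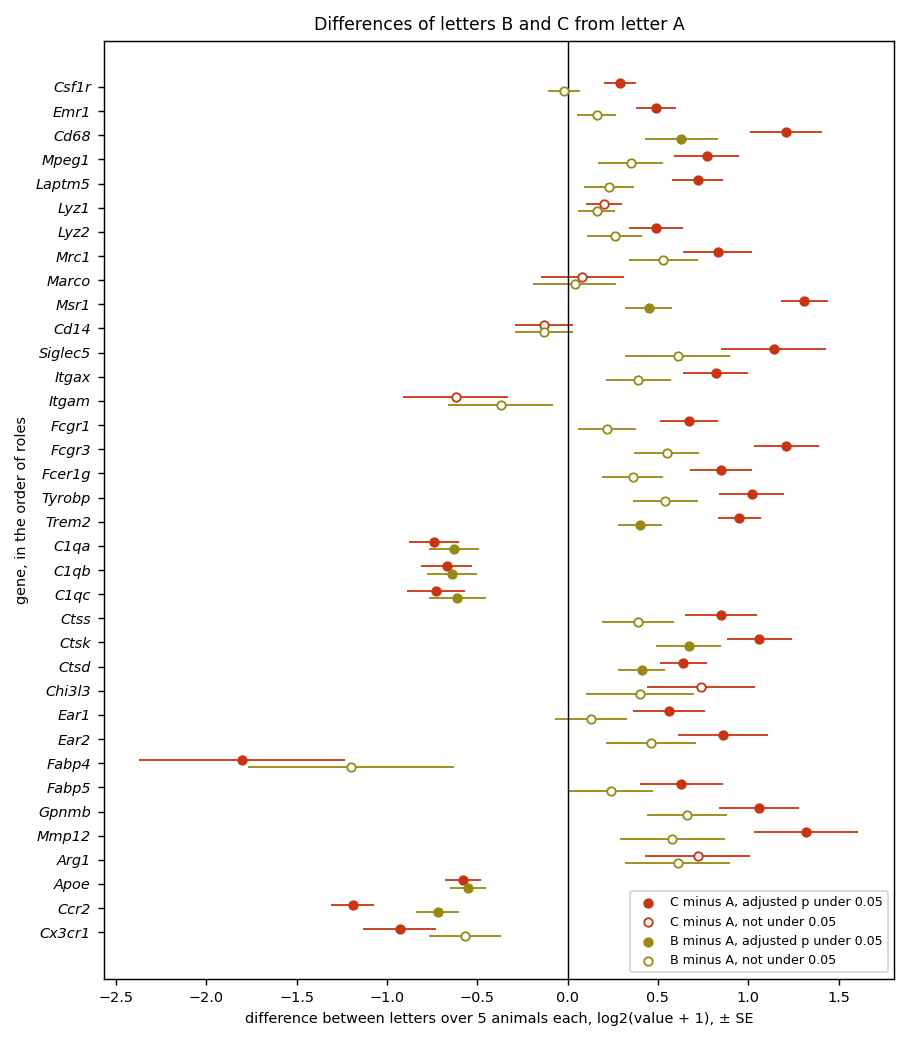
Difference of letter C from letter A (red) and of letter B from letter A (olive) for the 36 members, with bars of 1 SE and filled points where the adjusted p was under 0.05. The red points lie to the right for the 23 genes that rose and to the left for C1qa, C1qb, C1qc, Apoe, Ccr2, Cx3cr1 and Fabp4, and the olive points lie between them and 0 for most genes.

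The alveolar macrophage genes Marco, Siglec5, Itgax, Chi3l3, Ear1, Ear2, Fabp4 and Fabp5 were set against the 28 others. In C against A, 5 of these 8 rose, 1 fell and 2 did not pass, with a median difference of 0.68. Of the 28 others, 18 rose, 6 fell and 4 did not pass, with a median of 0.70. Siglec5, the row of the alveolar macrophage lectin Siglec-F, had lowest, median and highest values of 6.85, 7.78 and 8.17 in A, 7.72, 8.34 and 9.07 in B, and 7.74, 9.05 and 9.7 in C. Both C5 tumours lay in the A range and the other C columns above it. C stood 2.21-fold above A on this scale (SE 0.29 in log2; adjusted p = 0.00495). Itgax, which encodes the integrin CD11c found on alveolar macrophages and dendritic cells, rose by 0.82 ± 0.18 (adjusted p = 0.00216). Itgam, the CD11b integrin of monocytes, neutrophils and interstitial macrophages, differed by -0.62 ± 0.29 (adjusted p = 0.0912), and by -0.39 without column A11, in which it stood at 9.81. It passed at -0.80 without animal A3 (adjusted p = 0.0329), at -0.50 without columns A11, C11 and C21 (adjusted p = 0.0455), and at -0.99 on the recovered reads with edgeR (adjusted p = 0.047) and DESeq2 (adjusted p = 0.0182). These count tests summed the reads of an animal's columns, so A11 held most of the Itgam reads of A1 (897.1 normalized reads, against 178.2 in A10).

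The secreted and lipid-binding alveolar products gave weaker calls. Ear2 and Ear1, eosinophil-associated ribonucleases that alveolar macrophages also make, rose by 0.86 ± 0.25 (adjusted p = 0.0124) and 0.56 ± 0.20 (adjusted p = 0.0287). The call of Ear1 was lost without any one of animals A1, A2, C1 or C4, with differences of 0.40 to 0.54. With the first tumour of each animal alone, neither Ear2 (0.78, limma adjusted p = 0.0695) nor Ear1 (0.55, limma adjusted p = 0.0881) passed. Rows of the near-identical copies Ear3, Ear4, Ear7, Ear12 and Ear14 were listed at 0 in every column, so reads of the family may have been assigned to Ear1 and Ear2 or discarded. Chi3l3, the chitinase-like protein Ym1, differed by 0.74 ± 0.30 (adjusted p = 0.0546) and passed without B1, B2, C2 or C5, with differences of 0.74 to 0.92. It also passed with the animal as a random block (adjusted p = 0.0289), with the second tumours alone (0.0445), with edgeR (0.0466) and with DESeq2 (0.0363). Its close copy Chi3l4 rose by 0.92 ± 0.33 (adjusted p = 0.0356). Fabp5, a fatty acid binding protein, rose by 0.63 ± 0.23 (adjusted p = 0.0342). The call was lost without any one of animals A1, A3, A4, C3 or C5, with differences of 0.45 to 0.62, and with the first tumours alone (0.60, limma adjusted p = 0.0847).

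Fabp4, a fatty acid binding protein of alveolar macrophages that fat cells and endothelium also make, was the alveolar gene that fell. Its lowest, median and highest values were 7.71, 9.34 and 13.85 in A, 7.57, 8.14 and 9.73 in B, and 6.76, 7.81 and 8.92 in C. The highest value was that of A11, and the next A column stood at 10.17. The difference was -1.80 ± 0.57 (adjusted p = 0.0181), and -1.36 without column A11 (adjusted p = 0.0178). With the second tumour of each animal alone it was -1.87 and did not pass (adjusted p = 0.11). In A11 the fat cell gene Adipoq stood at 2157 normalized reads, against 116.9 in the next column. Over the 4 fat cell genes that passed the filter, 3 were lower in C than in A.

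Letter B lay between A and C for most of the members. Against A, 5 members rose (Cd68, Msr1, Trem2, Ctsk and Ctsd) and 5 fell (C1qa, C1qb, C1qc, Apoe and Ccr2). Over all genes 15.3% were called in this contrast, with 6.49% higher and 8.78% lower. The sizes were 0.63 ± 0.20 for Cd68 (adjusted p = 0.0444), 0.45 ± 0.13 for Msr1 (adjusted p = 0.0358) and 0.67 ± 0.18 for Ctsk (adjusted p = 0.0291). The decreases were -0.63 ± 0.14 for C1qa (adjusted p = 0.0186), -0.55 ± 0.10 for Apoe (adjusted p = 0.0161) and -0.72 ± 0.12 for Ccr2 (adjusted p = 0.0122). No member had A and B columns that did not overlap, against 0.234% of all genes. None of the 8 alveolar genes passed in B against A with limma, where 2 had an unadjusted p under 0.05, and edgeR and DESeq2 on the recovered reads called 1 each. The calls of the 5 rises rested on most of the animals. Where leaving out 1 animal lost a call, the differences were 0.51 to 0.68 for Cd68 and 0.39 to 0.47 for Msr1. They were 0.32 to 0.42 for Trem2, 0.55 to 0.63 for Ctsk and 0.32 to 0.46 for Ctsd. Calls over all genes fell too, from 2219 to 292 without A5 and 389 without B3. With A1, A2, A5, B2, B3 or B4 left out, 0 members passed as higher (limma), and without A4 1 did, while 2 to 5 stayed lower. The counts moved with single libraries too: 16 members were called without column B50, 8 without column A11, and 0 with the first tumour of each animal alone, where 8 had an unadjusted p under 0.05.

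Against B, the C tumours had 5 members higher, Csf1r, Laptm5, Msr1, Fcgr3 and Trem2, and 1 lower, Ccr2. Over all genes 17% were called, with 8.71% higher and 8.26% lower. Fcgr3 rose by 0.65 ± 0.18 (adjusted p = 0.0261) and Laptm5 by 0.48 ± 0.14 (adjusted p = 0.0248). The C1q genes and Apoe had differences of -0.11 for C1qa, -0.04 for C1qb, -0.12 for C1qc and -0.03 for Apoe, none of which passed. Msr1 and Trem2 passed as higher, and Ccr2 as lower, both from A to B and from B to C. With all columns in the fit and the animal as a random block, the A to B differences of Msr1 (0.45, limma adjusted p = 0.0776) and Trem2 (0.40, limma adjusted p = 0.0958) did not pass. Whether the steps differed in size was not tested. The 3 contrasts share their animals, so their values are not independent of each other. Leaving out 1 animal moved the count of members called in C against B between 3 and 11. The count was 7 without column A11 and 5 without column B50, against 6 in the main fit.

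Variance of each member was split between letters, animals of a letter and the tumours of an animal. The median share between letters was 51.9% over the members, against 29.8% over all genes kept, the share between animals 19.3% against 20.9%, and the share between sister tumours 29.7% against 40.5%. These are shares of a larger spread. The median SD between sister tumours was 0.28 on the log2 scale for the members and 0.15 over all genes kept, and that between animals 0.24 and 0.11. Letters took 85.2% of the variance of Ccr2 and 78.8% of that of Msr1, and 0.0% of that of Marco and Cd14. For the alveolar genes the median share between letters was 30.4% and that between animals 35.3%, compared with 54.7% and 16.7% for the other members.

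Animals of a letter differed beyond their tumours in 12 of the 36 members (limma F test over 12 animal differences, adjusted p under 0.05), against 26.7% of all genes kept. These 12 held 5 of the 8 alveolar genes, Siglec5, Chi3l3, Ear1, Fabp4 and Fabp5, and 7 of the 28 others. Cd14 had the smallest adjusted p (0.000941), with 75.8% of its variance between animals, followed by Mmp12 (adjusted p = 0.00119). Fabp5 was high in both tumours of C3 and of C5, and Arg1 in both tumours of B1. Without animal B5 the count rose to 26 members, and without animal C5 it fell to 7.

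**Figure D4:**
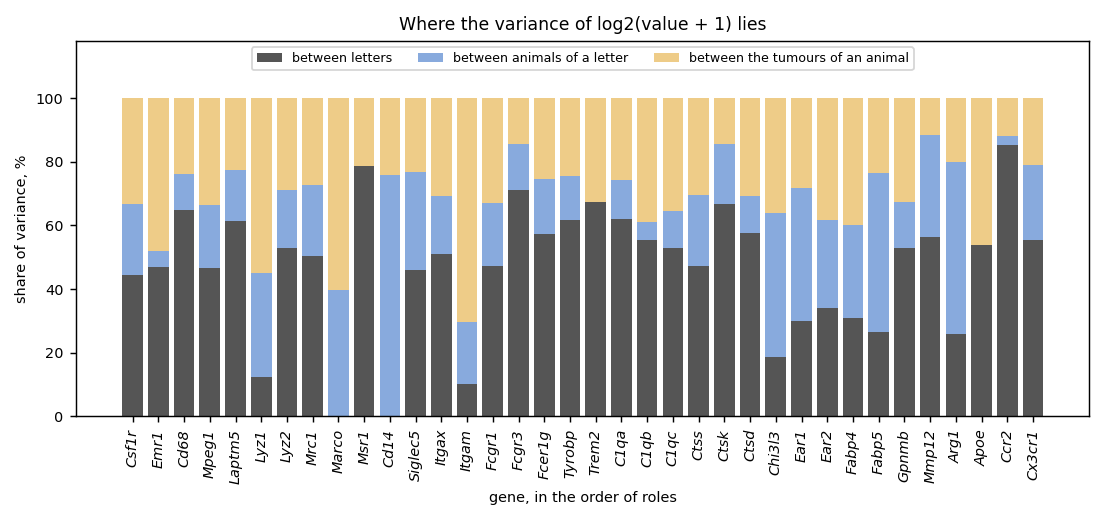
Share of the variance of log2(value + 1) of each member that lay between letters (dark), between animals of a letter (blue) and between the tumours of an animal (yellow), from a nested split with negative shares set to 0. Ccr2 and Msr1 have the tallest dark bars, and the chitinase-like, ribonuclease and fatty acid binding genes have taller blue bars than most others.

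The median gap between the tumours of an animal over the members was 0.08 to 0.48 in 14 of the 15 animals and 1.05 in animal B5. Over all genes kept, the median gap of an animal was 0.10 to 0.23, so sister tumours often differed more in the members than in genes at large. In B5, 19 members differed by over 1 on the log2 scale, against 6.69% of all genes kept, and B51 was the higher tumour in 28. Cd68 stood at 8.93 in B50 and 10.38 in B51, and Marco at 9.85 and 11.46. C1qa ran the other way, at 10.07 and 8.96, as did Ccr2 at 8.87 and 7.95. B50 thus had low values of the genes that were higher in C and high values of those that were lower. The summed club cell markers were 2580000 in B50 and 1350000 in B51, and the endothelial markers 22600 and 15200. Their part in the gap was not tested. The largest gap of a single member was that of Fabp4 in animal A1, at 4.44.

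Over the 15 animals many members moved together, and others ran against them. Among pairs of members outside the alveolar genes, 218 of 378 had a positive r, and the lowest r was -0.91. Between these members and the alveolar genes 147 of 224 pairs were positive. Of 35 relations with Csf1r, 20 passed the permutation test with Benjamini-Hochberg adjustment over the 42 relations computed (two-sided, 100000 resamples), and all 20 were positive. Laptm5 had the highest Pearson r, 0.83 (Spearman rho 0.84; permutation p = 0.00013, adjusted p = 0.0055), and 0.84 without the animals farthest in Csf1r, C1 and B4. Fcgr3 followed with r 0.78 and rho 0.73 (permutation p = 0.00068, adjusted p = 0.0076; 0.85 without those animals), and Itgax with r 0.78 and rho 0.80 (permutation p = 0.00069, adjusted p = 0.0076; 0.81 without them). The relations of Cx3cr1 (r -0.55, rho -0.58, permutation p = 0.03, adjusted p = 0.058), Cd14 (r -0.51, rho -0.52, permutation p = 0.053, adjusted p = 0.094) and Ccr2 (r -0.50, rho -0.50, permutation p = 0.056, adjusted p = 0.094) did not pass. After each letter's mean was removed, 0 of the 35 relations passed, 11 had an unadjusted permutation p under 0.05, and the smallest adjusted p was 0.064. Laptm5 then had r 0.70 and Fcgr3 r 0.68.

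Marco was related to the other 7 alveolar genes with r of 0.07 for Fabp5 to 0.46 for Siglec5 and Chi3l3. None of these 7 passed, and none had an unadjusted permutation p under 0.05. Described without a test over the 15 animal means, the median r between pairs was 0.46 within the alveolar genes, 0.48 within the others and 0.49 between these groups. Within the 7 alveolar genes other than Fabp4 it was 0.61. The highest r between 2 members was 0.99, for Fcgr3 with Tyrobp and for C1qa with C1qc. The median over the C1q pairs was 0.98, and Cd68 with Fcgr3 and Laptm5 with Itgax also reached 0.98. C1qa had r 0.95 with Apoe, 0.84 with Ccr2 and -0.74 with Cd68. All of these values share the letters, and the genes of a column share its depth scaling.

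**Figure D5:**
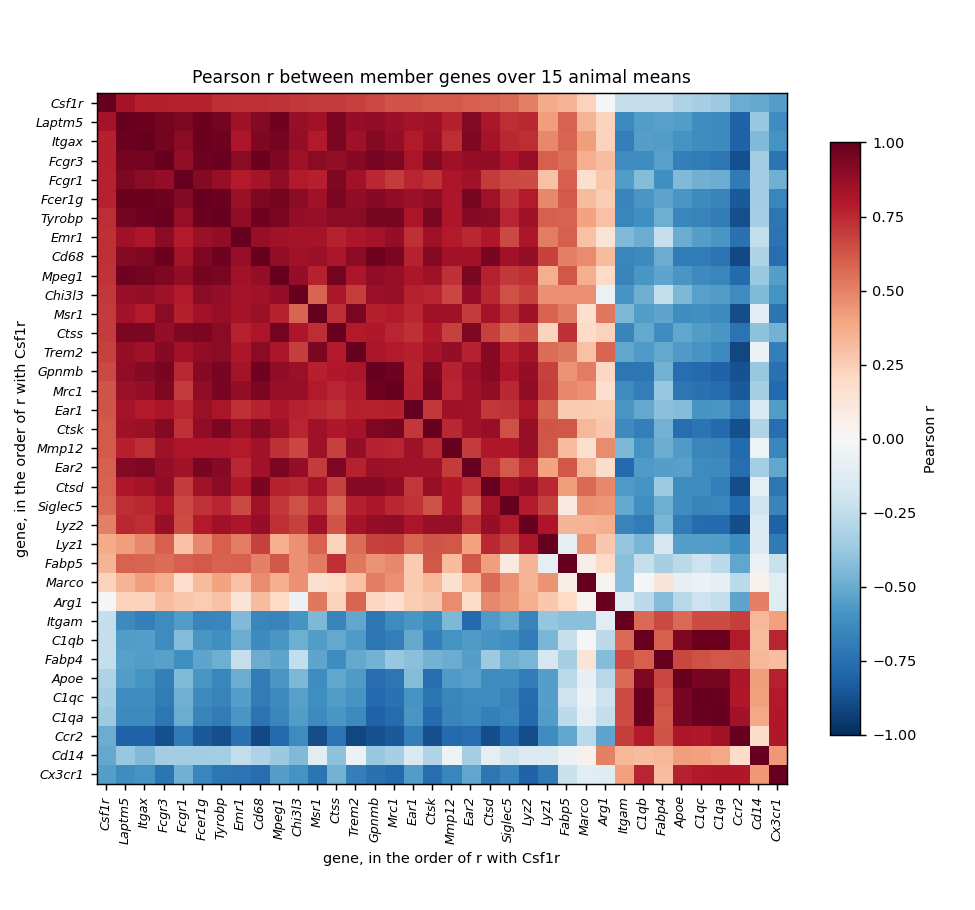
Pearson r between each pair of the 36 members over 15 animal means, with genes in the order of their r with Csf1r. A large red block joins Csf1r to Lyz2, a smaller red block joins Itgam, C1q, Apoe, Fabp4, Ccr2 and Cx3cr1, the blocks are blue against each other, and Marco, Arg1 and Cd14 are pale against most genes.

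Among all genes kept, those with the pattern over animals most like Csf1r included Bub3 (r 0.95), Hn1, Rap2b, Dock2 and Hspa8 (0.91 each) and Irf2, Abi1, Mob3a and Lyn (0.90 each). Those most like Marco were Ccdc72 (0.84), Mon1a (0.82), Cxcr1 and Snai1 (0.81 each), Gmpr2, Ptgir and Adsl (0.77 each), Gngt2 and Bcl2a1d (0.76 each) and Il1a (0.74). These are rankings over 15 animal means and were not tested.

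Genes that feed or transmit the macrophage growth signals were described from lists chosen with earlier results of these data known. The counts from the lists here and below are therefore descriptions. Over all genes kept, 21.9% were higher in C than in A and 22.9% lower. Of 11 genes of the CSF1R and GM-CSF axis, 8 were higher in C than in A and 2 were lower. Csf2rb, the shared signalling chain of the GM-CSF receptor, had lowest, median and highest values of 9.28, 9.88 and 10.35 in A and 10.7, 11.01 and 11.28 in C, with no overlap, and rose by 1.16 ± 0.15 (adjusted p = 0.00011). Its paralog Csf2rb2 rose by 1.25 ± 0.16, and reads of this pair may be shared. The ligand gene Csf2, which encodes GM-CSF, rose by 0.77 ± 0.18, the receptor chain Csf2ra by 0.65 ± 0.11 and Pparg by 0.50 ± 0.13. Il34, the second ligand of CSF1R, rose by 0.34 ± 0.12, whereas Csf1 fell by 0.61 (SE 0.17; adjusted p = 0.00891) and the monocyte lineage factor Irf8 fell by 0.69 (SE 0.15; adjusted p = 0.00264). Cebpa and Cebpb, which also act in epithelium, rose by 0.49 ± 0.10 and 0.53 ± 0.08.

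Of 8 kinases, lipases and adaptors downstream of Fc receptors and TREM2, 6 rose in C and 2 did not pass. Fgr, a SRC family kinase of myeloid cells, rose by 0.93 ± 0.14 and Syk, the kinase recruited by Tyrobp and Fcer1g, by 0.78 ± 0.12 (adjusted p = 0.000368). Btk rose by 0.73 ± 0.13, Vav1 by 0.51 ± 0.13, Plcg2 by 0.36 ± 0.12 and Lyn by 0.26 ± 0.08.

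Of 9 further alveolar macrophage genes that passed the filter, 5 rose and none fell. Abcg1, a cholesterol exporter, rose by 0.82 ± 0.16, Plin2, a coat protein of lipid droplets, by 0.80 ± 0.12, Olr1, a receptor for oxidised lipoprotein, by 0.97 ± 0.22, and Car4 by 0.51 ± 0.19. Of 12 genes of interstitial or monocyte-derived macrophages, 1 rose and 5 fell. The gene that rose was Retnla, a secreted product also made by epithelium, by 1.31 ± 0.32 (adjusted p = 0.00442). Cd163, a haemoglobin scavenger receptor, had lowest, median and highest values of 4.75, 5.38 and 7.6 in A and 2.39, 3.6 and 5.13 in C, and fell by 1.74 (SE 0.37; adjusted p = 0.00198). Its highest value was in A11. Lyve1 and Stab1, which endothelium also expresses, fell by 1.03 and 0.64, Clec10a by 0.72 and Cd83 by 0.36.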

How the data were processed

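Per the labels' protocols, RNA from 30 mouse lung tumours was made into TruSeq RNA v2 libraries. TopHat 1.3.3, HTSeq, DESeq 1.14.0 and the build mm9 are named, without roles, in the submitters' processing notes. The authors deposited 1 table of normalized signal: read counts per gene divided by a size factor for each column. All values (100%, tolerance 0.01 read) were whole multiples of 1 read, worth 0.841 to 1.18, and each column held 18322631 to 24408946 reads.

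Genes with a mean of at least 10 over the columns were kept, and log2(value + 1) was tested with limma 3.58.1 (R 4.3.3), with trend, on means of each animal's columns, all letters in 1 fit. Treating a letter as a group and letter plus digit as an animal follows the shape of the column names. Named genes were all members, listed genes by their calls, and genes among the 10 most like Csf1r and Marco; some genes are not reported here. The members, lists and roles were chosen with earlier results of these data known, and fat cell genes after column A11 was seen. edgeR 4.0.16 and DESeq2 1.42.0 on recovered reads were alternatives. Fits were tested on simulated data. Exon lengths came from GENCODE M21 and promoters from RefSeq (GRCm38.p6), neither the deposited build. Whether the counting used strand is not given in the sources used here. Fold changes on this scale understate those of low genes. The p-values of the letter contrasts set differences against the spread between animals, read from the column names. Those of the F test use the spread between sister tumours, and those of the correlations come from permuted animal means.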

Additional observations from a re-analysis of the deposited data

Results flagged for a closer look

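In 7 of 108 groups of a gene and a letter, 1 column stood far from the nearest of the other 9, by Dixon's criterion for 10 values, and chance alone flags about 1 in 20 groups. Column A11 gave 3 of them. Fabp4 stood at 13.85 in A11, with the next A column at 10.17 and a letter median of 9.34. Itgam stood at 9.81 in A11, with the next at 7.80 and a median of 7.24. Chi3l3 stood low in A11, at 13.37, with the next at 14.14 and a median of 14.76. In the same column the sum of 5 fat cell genes was 10400 normalized reads, against 1150 in the next column, and the part of this in the 3 values was not tested.

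The tumours of animal B5 gave the other 4. Msr1 was low in B50, at 7.09, with the next B column at 7.80, and Trem2 was low there too, at 7.49, with the next at 8.29. C1qa was low in B51, at 8.96, with the next at 9.69, and C1qb at 8.57, with the next at 9.40.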

How the results depend on the processing

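For C against A, the counts of genes and of members called stayed within 1.5 times under all 28 settings tried, with 25 members called for the first tumour of each animal alone, 33 with DESeq2 and 31 without columns A11, C11 and C21, a set chosen after seeing the data. For B against A, 2219 genes and 10 members were called. With the first tumour of each animal limma called 0 genes, with 2428 at an unadjusted p under 0.05, and 0 members. Without column B50, added after seeing the data, the counts were 3329 genes and 16 members. The second tumour alone gave 16 members and DESeq2 16. Leaving out 1 animal gave 292 genes (without A5) to 3434 (without A3), and 2 to 14 members. The other animals that moved the gene count by over 1.5 times were A1 (660), A2 (800), A4 (884), B2 (1366), B3 (389) and B4 (1107). For C against B, 2468 genes and 6 members were called. The first tumour alone gave 1056 genes and 3 members, the second 1 member and DESeq2 11. Leaving out 1 animal gave 1506 genes (without C1) to 2870, and 3 members (without B1, B5 or C1) to 11 (without A1), with 10 without B2 or C5. For differences between animals, 12 members became 7 without C5 and 26 without B5. The relations with Csf1r fell from 20 to 0 after centring on letter means. The cause of these changes was not tested.

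Signs turned for Marco in C against A, to -0.03 with the first tumours, -0.00 without A1 and -0.08 without C1, within a range of -0.08 to 0.20 over the animals left out. Centring turned the r with Csf1r of Itgam (0.05), C1qb (0.13), Fabp4 (0.17), Fabp5 (-0.08), Apoe (0.00) and Ccr2 (0.08), and leaving out animal A1 turned that of Fabp5 with Marco to -0.03. Over the members and listed settings for C against A, 996 values kept direction and side of the threshold, 16 lost the call, 21 gained it and 3 reversed. Another scaling or setting moved the median of all genes by at most 0.0234. No paired analysis was possible because the columns are not tied to labelled samples and no label pairs animals across treatments. Whether depth or the number of animals limits the precision more was not tested.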
